A study of Homo sapiens with 34 samples.

Results

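Lateral mesoderm was made in these experiments from primitive streak (PS) cells of different positions, and the comparison described here sets PPS-LM, made from posterior PS cells, against MPS-LM, made from mid PS cells by the standard lateral mesoderm protocol. It rests on 4 of the 34 libraries of the series, the 2 replicates of PPS-LM and the 2 of MPS-LM, chosen by their labels, and it covers all genes measured. All libraries came from wild-type cells of ESI017, a line of human embryonic stem cells, grown as adherent cultures, so every value describes 1 line in culture and a whole well of cells. On day 1, MPS cells were given BMP4 at 40 ng/ml, CHIR99021 at 6 µM, bFGF at 20 ng/ml and activin at 30 ng/ml, while PPS cells had the same amounts of BMP4, CHIR99021 and bFGF and no activin. On day 2, both received LM medium, which held IWP2 at 4 µM, BMP4 at 30 ng/ml and A-8301 at 1 µM, and RNA was collected at 48 h. Activin was therefore the only factor that differed between the protocols, and only on the first day. Other libraries are used where they place a result: PPS and MPS cells at 24 h, PPS-PM and MPS-PM cells after a day in PM medium (LDN at 250 nM, bFGF at 20 ng/ml and A-8301 at 1 µM), PPS-DE(b) and MPS-DE(b) cells after a day in DE(b) medium (LDN at 250 nM and activin at 100 ng/ml), APS-LM and DE(a)-LM cells, whose day 1 medium held CHIR99021 at 4 µM, bFGF at 20 ng/ml and activin at 30 ng/ml (APS) or CHIR99021 at 2 µM and activin at 100 ng/ml (DE(a)), and the undifferentiated control. Each of these conditions had 2 replicates. The PM components are those given for these libraries, but PM is elsewhere in the study described as also activating WNT with CHIR99021, so whether the PM libraries had CHIR99021 on day 2 is not settled here.

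During gastrulation, epiblast cells enter the PS, lose the junctions that hold an epithelium together and leave as mesenchymal mesoderm or endoderm, a change called the epithelial to mesenchymal transition (EMT). Posterior PS cells, which see much BMP and little activin or Nodal signal, give rise to lateral and extra-embryonic mesoderm, including the allantois. The amnion is a BMP-responsive epithelium beside the streak that is known for TFAP2A, GATA3, ISL1 and GABRP, and ISL1 is also used by cardiac progenitors of the lateral mesoderm. CHIR99021 activates the WNT pathway, IWP2 stops the secretion of WNT ligands, A-8301 inhibits the receptors of activin, Nodal and TGFβ, and LDN inhibits those of BMP.

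Levels are given as CPM, the estimated counts of a gene per 1000000 estimated counts of the library. They are not scaled by gene length, so they compare a gene between libraries and not genes with each other. Totals in the 4 libraries ranged from 17192526 to 21076327 estimated counts, so that 3 counts, taken as the limit for a gene with none, equalled 0.142 to 0.175 CPM (counting error only). Mitochondrial mRNAs took 5.08% of PPS-LM replicate 1, 8.20% of PPS-LM replicate 2, and 5.48% and 5.39% of the MPS-LM replicates, so PPS-LM replicate 2 stood apart in this respect. Across 14647 genes, which are not independent replicates, log2(CPM + 1) correlated with r = 0.985 between the PPS-LM replicates, r = 0.981 between the MPS-LM replicates and r = 0.951 to 0.967 between the protocols. Differences are log2 fold changes, PPS-LM over MPS-LM, with their standard error (SE) and adjusted p from the quasi-likelihood test of edgeR, and genes with an adjusted p below 0.05 were called. The replicates were deposited as biological replicates. The p-values set a difference against the spread between replicates, which was estimated over all 17 conditions and not from the 4 compared libraries alone. In bulk libraries of this kind, fewer cells of a type and less RNA per cell cannot be told apart.

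After the day in LM medium, 13 of 21 epithelial junction genes, 9 of 17 amnion markers and 15 of 37 HOX genes tested were called higher in PPS-LM than in MPS-LM cells, while the median difference of the lateral mesoderm genes was near 0. With a library left out, the junction genes called numbered 8 to 12, the amnion markers 3 to 7 and the HOX genes 3 to 11. Of 17895 genes tested, 1002 were called (5.6%), of which 690 were higher in PPS-LM (3.86%) and 312 lower (1.74%). 2788 genes had an unadjusted p under 0.05. The differences upward were larger: 528 of the higher genes and 196 of the lower ones changed at least 2-fold, and 133 and 29 at least 8-fold. The median log2 fold change was 1.70 among the higher genes and -1.26 among the lower ones, against 0 for all genes tested. For each of the 1002 genes both PPS-LM libraries lay on one side of both MPS-LM libraries, which held for 24.2% (above) and 20.1% (below) of all genes tested. PPS-LM had the highest level of all 17 conditions for 242 of the 690 higher genes (35.1%), against 5.96% of all genes tested. Among the 4 LM conditions it was the highest for 71.9% of the higher genes (21.4% of all) and the lowest for 87.5% of the lower genes (31.3% of all). The called genes were chosen by their PPS-LM and MPS-LM levels in these same libraries. That such shares exceed those of all genes, for the sides and for the ranks, therefore follows in part from that choice. The counts depended on single libraries: 376 genes were called without PPS-LM replicate 2, 417 without MPS-LM replicate 1, 663 without MPS-LM replicate 2 and 678 without PPS-LM replicate 1. When a change of more than 2-fold was itself required by the test, 173 genes were called, 145 of them higher.

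**Figure D1:**
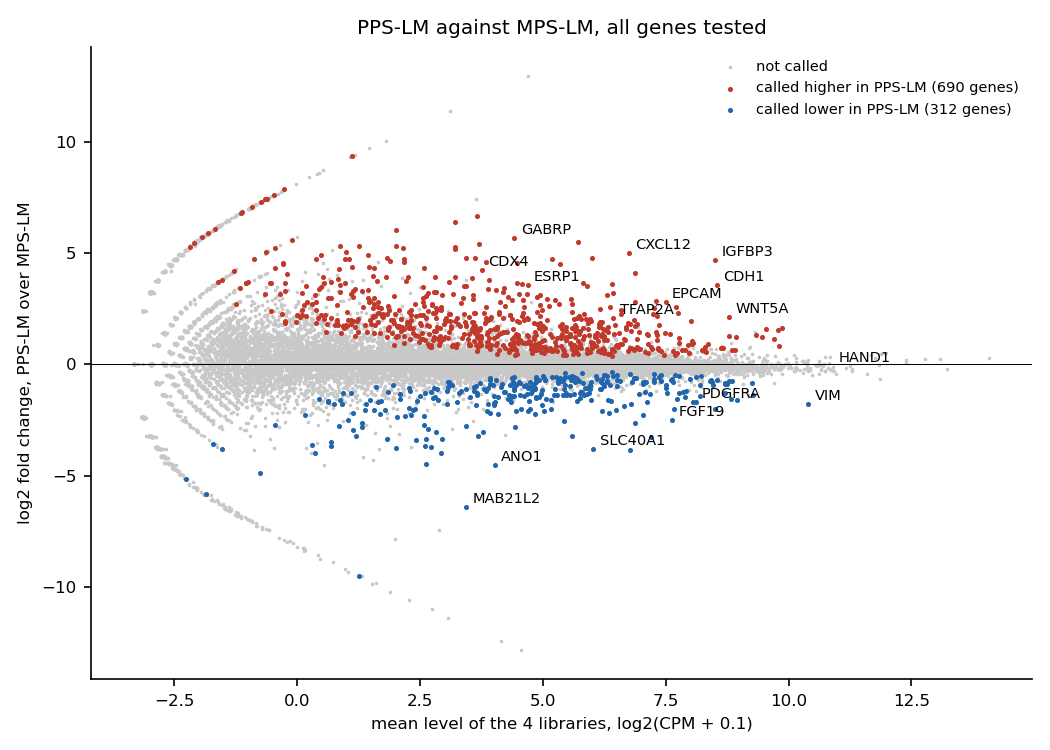
Log2 fold change of PPS-LM over MPS-LM against the mean level of the 4 libraries, log2(CPM + 0.1), with 1 point for each of 17895 genes tested, red for the 690 called higher, blue for the 312 called lower and grey for the rest. Genes with no count in one of the protocols form the curved edges at the left and have fitted fold changes that are not bounds. IGFBP3 and CDH1 stand out as abundant genes that were higher, VIM as an abundant gene that was lower, and HAND1 lies near 0.

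A large share of the epithelial junction genes was called higher. Of 21 members, all tested, 13 were called higher and 0 lower, where 3.86% of all genes were higher, and the median log2 fold change of the list was 1.78 against 0 for all genes. CDH1, which encodes E-cadherin, the adhesion molecule of epithelia (chr16:68737292-68835537 of GRCh38), had 616 and 763 CPM in the PPS-LM libraries and 46.3 and 67.4 CPM in the MPS-LM libraries. All of the PPS-LM values lay far above the MPS-LM values, and above the 303 and 299 CPM of the undifferentiated control libraries. The log2 fold change was 3.58 (SE 0.28, adjusted p = 6.91e-08), or 11.9-fold. EPCAM, an epithelial adhesion glycoprotein (chr2:47345158-47387601), had 289 and 343 CPM in the PPS-LM libraries and 36.3 and 53.3 CPM in the MPS-LM libraries, a log2 difference of 2.80 (SE 0.28, adjusted p = 1.35e-06). PPS-LM was the condition with the highest EPCAM level of the 17. CDH3, which encodes P-cadherin, had 100.5 and 121 CPM in the PPS-LM libraries and 35.2 and 27.5 CPM in the MPS-LM libraries, with a log2 difference of 1.81 (SE 0.20, adjusted p = 5.22e-06). Its PPS-LM values stood above MPS-LM but below the 177 and 149 CPM of the control. Some large log2 fold changes of the list belonged to scarce transcripts. CRB3, a subunit of the Crumbs polarity complex, had 1.95 and 4.56 CPM in the PPS-LM libraries and 0.174 and 0.142 CPM in the MPS-LM libraries (log2 fold change 4.30, SE 0.67, adjusted p = 0.000319), and the claudin gene CLDN3 had 0.368 and 1.59 CPM in the PPS-LM libraries and 0.0582 and 0.142 CPM in the MPS-LM libraries (log2 fold change 3.15, SE 0.93, adjusted p = 0.0484). The other members called higher were MARVELD3, CLDN7, CLDN4, CLDN6, CGN, MARVELD2, OCLN and F11R, all of them components of tight junctions, with log2 fold changes from 2.53 for MARVELD3 down to 0.69 for F11R. CLDN3 was not called without PPS-LM replicate 2, MPS-LM replicate 1 or MPS-LM replicate 2 (adjusted p = 0.145 to 0.687). The number of members called was 12 without PPS-LM replicate 1, 8 without PPS-LM replicate 2, 9 without MPS-LM replicate 1 and 11 without MPS-LM replicate 2.

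RefSeq promoter sequences were at hand for 8 of these 13 genes, CRB3, CLDN3, CLDN7, CLDN4, CLDN6, CGN, MARVELD2 and OCLN. In the 250 bases before the start, the E-box letters CACCTG, searched on both strands (CAGGTG on the other), were found in 2 of the 8, CRB3 and OCLN, against 17.5% of 27305 promoters. E-boxes of this kind are bound by SNAI and ZEB repressors, whose known targets include epithelial genes, which is why these sequences are shown. The letters GCCNNNGGC, a palindrome recognised by AP-2 factors such as TFAP2A, were also found in 2 of the 8, CLDN3 and CLDN6, against 19.7% of promoters, and neither motif overlapped the other in any of the 8. The 250 bases before the start of CRB3 (chr19:6464021-6464270, plus strand, GRCh38.p14) held 5 matches, whose first bases lie 228, 208, 147, 89 and 60 bases before the start, and those of OCLN (chr5:69492297-69492546, plus strand) held 1, which begins 33 bases before it. A match is a description of the letters and no evidence of binding. Capitals mark the E-boxes.
CRB3: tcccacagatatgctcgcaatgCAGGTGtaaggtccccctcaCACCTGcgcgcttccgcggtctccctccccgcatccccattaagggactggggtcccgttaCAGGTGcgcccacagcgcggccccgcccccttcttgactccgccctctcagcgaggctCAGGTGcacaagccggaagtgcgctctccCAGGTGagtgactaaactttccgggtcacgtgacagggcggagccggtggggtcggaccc
OCLN: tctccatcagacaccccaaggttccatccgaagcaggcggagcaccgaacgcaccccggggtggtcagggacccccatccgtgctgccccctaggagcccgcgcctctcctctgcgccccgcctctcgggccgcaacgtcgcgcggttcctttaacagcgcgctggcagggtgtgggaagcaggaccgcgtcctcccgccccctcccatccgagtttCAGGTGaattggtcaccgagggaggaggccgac

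Genes that regulate the epithelial state went the same way. Of 13 members tested of 14, 12 were called higher and 1 lower, with a median log2 fold change of 2.43. GRHL1 and GRHL2 encode Grainyhead factors that activate junction genes. GRHL1 had 16 and 25.6 CPM in the PPS-LM libraries and 0.756 and 0.712 CPM in the MPS-LM libraries, and GRHL2 had 32.1 and 55.9 CPM in the PPS-LM libraries and 3.57 and 3.56 CPM in the MPS-LM libraries, with log2 fold changes of 4.80 (SE 0.58, adjusted p = 1.61e-05) and 3.62 (SE 0.43, adjusted p = 1.41e-05). GRHL1 was higher in PPS-LM than in any other condition, and GRHL2 in PPS-LM lay around the 38.5 and 37.1 CPM of the control. ESRP1, a splicing factor of epithelial cells, had 39 and 56.2 CPM in the PPS-LM libraries and 3.23 and 4.62 CPM in the MPS-LM libraries (log2 fold change 3.58, SE 0.30, adjusted p = 1.47e-07), both below the 202 and 225 CPM of the control. ST14, which encodes the membrane protease matriptase, had 6.4 and 11.1 CPM in the PPS-LM libraries and 0.641 and 0.474 CPM in the MPS-LM libraries (log2 fold change 3.96, SE 0.44, adjusted p = 4.92e-06). The others called higher were OVOL2, RAB25, OVOL1, ESRP2, PRSS8, ELF3, SPINT1 and SPINT2. The exception was KLF5, a factor of stem and epithelial cells, which was lower, with 13.1 and 18.5 CPM in the PPS-LM libraries and 34 and 42.4 CPM in the MPS-LM libraries, a log2 difference of -1.29 (SE 0.32, adjusted p = 0.0176). The number of members called was 11 without PPS-LM replicate 1, 9 without PPS-LM replicate 2, 9 without MPS-LM replicate 1 and 10 without MPS-LM replicate 2. DE(a)-LM cells also had high levels of both epithelial groups. The regulators summed to 536 to 582 CPM in the DE(a)-LM libraries, against 446 to 566 CPM in PPS-LM, 156 to 180 CPM in MPS-LM and 193 to 216 CPM in APS-LM. The junction genes summed to 1390 to 1472 CPM in DE(a)-LM, between the 1805 to 2222 CPM of PPS-LM and the 580 to 664 CPM of MPS-LM. These sums were not tested.

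Cytoskeletal genes of epithelia changed less as a group. Of 18 keratin and desmosome genes tested of 19, 3 were higher, 1 was lower, and the median log2 fold change was 0.11. The abundant simple keratins stayed close: KRT8 had 3548 and 3865 CPM in the PPS-LM libraries and 3249 and 4084 CPM in the MPS-LM libraries, with ranges that overlapped. KRT7, a keratin of simple epithelia, had 7.18 and 9.97 CPM in the PPS-LM libraries and 0.291 and 0.332 CPM in the MPS-LM libraries (log2 fold change 4.74, SE 0.99, adjusted p = 0.00504). DSP, the desmosomal plaque protein desmoplakin, had 1105 and 1528 CPM in the PPS-LM libraries and 418 and 466 CPM in the MPS-LM libraries (log2 fold change 1.56, SE 0.27, adjusted p = 0.000968), and PKP3, another plaque protein, had 8.74 and 14 CPM in the PPS-LM libraries and 1.63 and 1.85 CPM in the MPS-LM libraries (log2 fold change 2.69, SE 0.42, adjusted p = 0.000298). DSC3, a desmosomal cadherin, was lower, at 2.53 and 1.31 against 11.3 and 4.84 CPM (log2 fold change -2.07, SE 0.61, adjusted p = 0.0484). KRT7 was not called without MPS-LM replicate 1 or MPS-LM replicate 2 (adjusted p = 0.0587 to 0.0843). DSC3 was not called without PPS-LM replicate 1, PPS-LM replicate 2 or MPS-LM replicate 1 (adjusted p = 0.0969 to 0.426) or with only the 4 libraries in the fit (adjusted p = 0.0758).

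**Figure D2:**
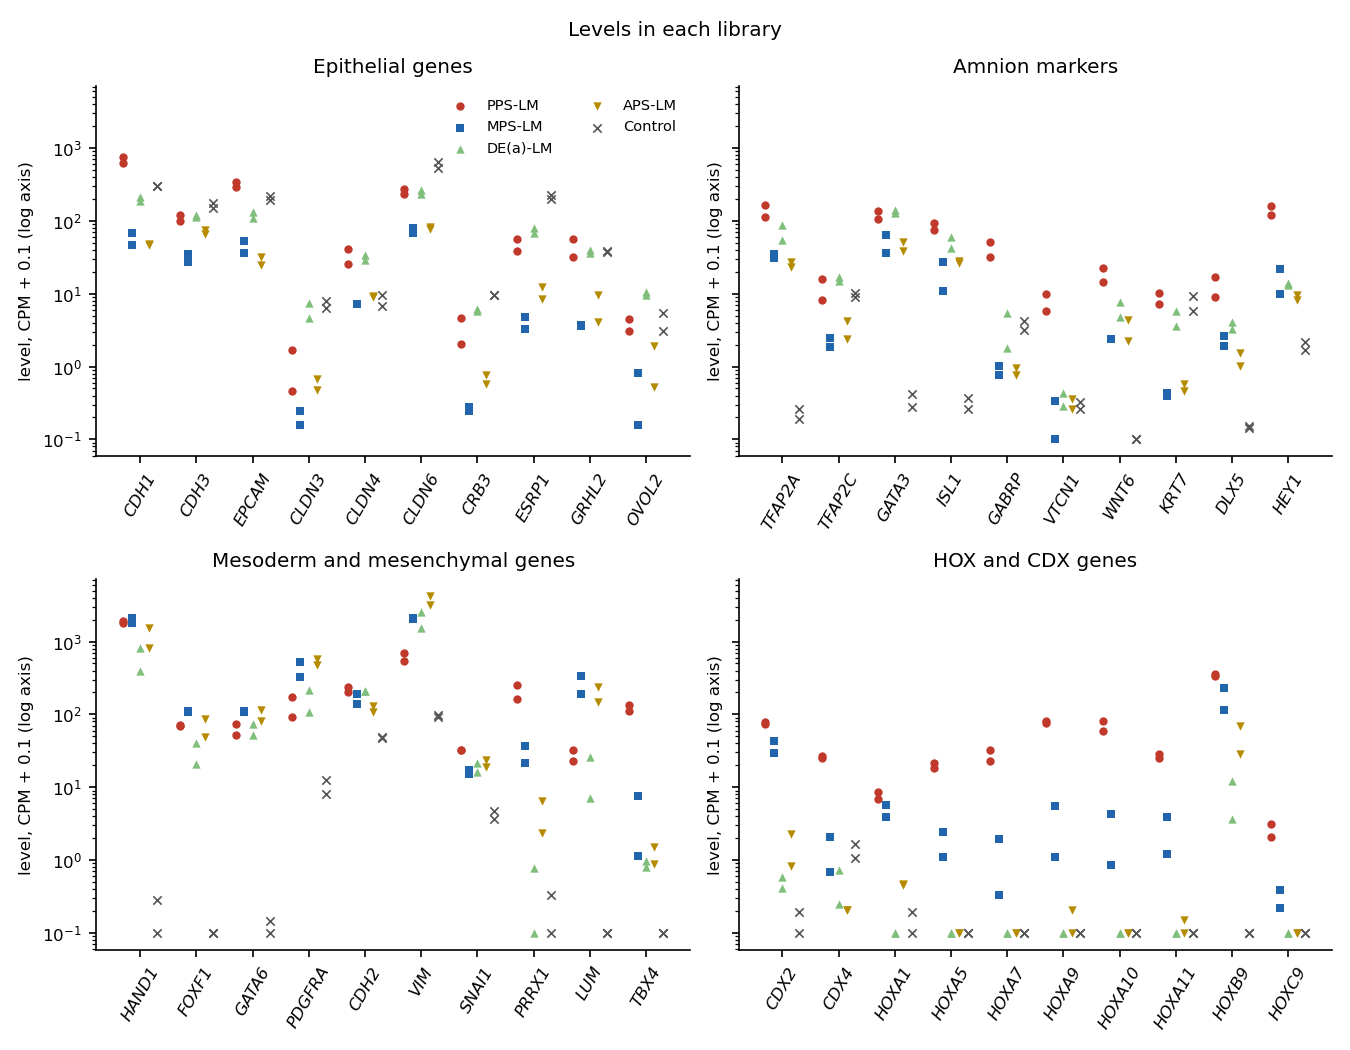
Level of 40 genes in each library, CPM + 0.1 on a log axis, in PPS-LM (circles), MPS-LM (squares), DE(a)-LM (triangles), APS-LM (inverted triangles) and the undifferentiated control (crosses), 2 libraries each. CDH1 and EPCAM lie higher in PPS-LM than in the other LM conditions and the control, HAND1 lies among the most abundant genes shown in both PPS-LM and MPS-LM, and the HOXA genes shown from HOXA5 to HOXA11 lie at or near 0 outside PPS-LM and MPS-LM.

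The mesenchymal genes were called in both directions. Of 17 genes of the EMT list, all tested, 3 were higher, 3 were lower and the median log2 fold change was -0.15. Each count was 17.6% of the list, where 3.86% of all genes tested were higher and 1.74% lower. The list summed to 4674 to 5601 CPM in PPS-LM and 7018 to 7156 CPM in MPS-LM, and these sums were not tested. CDH2, which encodes N-cadherin, had 235 and 204 CPM in the PPS-LM libraries and 137 and 188 CPM in the MPS-LM libraries, a log2 difference of 0.41 (SE 0.15, adjusted p = 0.134) that was not called, although both PPS-LM values lay above both MPS-LM values. Without MPS-LM replicate 2, CDH2 was called higher (log2 fold change 0.71, adjusted p = 0.0121). Higher CDH1 in PPS-LM therefore did not come with lower CDH2 values. VIM, the intermediate filament vimentin of mesenchymal cells, had 695 and 532 CPM in the PPS-LM libraries and 2059 and 2138 CPM in the MPS-LM libraries, both PPS-LM values far below both MPS-LM values, with a log2 difference of -1.79 (SE 0.33, adjusted p = 0.0014). SNAI1, the E-cadherin repressor Snail, was higher in PPS-LM, with 32.2 and 32.5 CPM against 14.9 and 17.4 CPM (log2 fold change 0.98, SE 0.24, adjusted p = 0.016), so that higher CDH1 and higher SNAI1 stood side by side. PRRX1, a mesenchymal transcription factor, had 249 and 161 CPM in the PPS-LM libraries and 21.4 and 36.2 CPM in the MPS-LM libraries (log2 fold change 2.80, SE 0.80, adjusted p = 0.0466), and TGFBI, a secreted matrix protein, had 71.3 and 96.7 CPM in the PPS-LM libraries and 10.6 and 14.2 CPM in the MPS-LM libraries (log2 fold change 2.74, SE 0.33, adjusted p = 1.54e-05). LOX, the enzyme that crosslinks collagen, had 1.8 and 1.2 CPM in the PPS-LM libraries and 16.1 and 8.66 CPM in the MPS-LM libraries (log2 fold change -3.05, SE 0.81, adjusted p = 0.0258), and MMP2, a matrix protease, was the other member called lower. The repressors ZEB1, ZEB2 and SNAI2 were not called. SNAI1 was not called without PPS-LM replicate 1, PPS-LM replicate 2 or MPS-LM replicate 1 (adjusted p = 0.0594 to 0.189). PRRX1 was not called without any of the 4 libraries (adjusted p = 0.142 to 0.312) or with DESeq2 (adjusted p = 0.28). LOX was not called without PPS-LM replicate 1, PPS-LM replicate 2 or MPS-LM replicate 1 (adjusted p = 0.126 to 0.28). The number of members called was 3 without PPS-LM replicate 1, 2 without PPS-LM replicate 2, 2 without MPS-LM replicate 1 and 6 without MPS-LM replicate 2.

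Of 15 collagen and laminin genes, 2 were higher (COL6A1 and COL6A2) and 4 lower, with a median log2 fold change of -0.02. COL5A1, a fibrillar collagen, had 275 and 222 CPM in the PPS-LM libraries and 838 and 637 CPM in the MPS-LM libraries (log2 fold change -1.58, SE 0.18, adjusted p = 9.21e-06). LAMA1, a laminin chain of basement membranes, had 218 and 243 CPM in the PPS-LM libraries and 696 and 662 CPM in the MPS-LM libraries (log2 fold change -1.57, SE 0.21, adjusted p = 4.13e-05). For each of them the MPS-LM libraries held well over the PPS-LM level. COL1A2 and COL5A2 were lower by log2 fold changes of -1.40 and -1.27 (adjusted p = 0.00152 and 0.0114). COL1A2 was not called without PPS-LM replicate 2 (adjusted p = 0.0654). COL5A2 was not called without PPS-LM replicate 1, PPS-LM replicate 2 or MPS-LM replicate 1 (adjusted p = 0.054 to 0.154).

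Amnion markers formed another group with many higher genes. Of 17 tested of 18, 9 were higher, 0 were lower and the median log2 fold change was 2.53. GABRP, a GABA receptor subunit used as an amnion marker (chr5:170763350-170814047), had 31.8 and 51.9 CPM in the PPS-LM libraries and 0.931 and 0.664 CPM in the MPS-LM libraries, and no other of the 17 conditions reached the PPS-LM level. Its log2 fold change was 5.70 (SE 0.72, adjusted p = 2.51e-05). TFAP2A, an AP-2 transcription factor of surface ectoderm and amnion, had 113 and 167 CPM in the PPS-LM libraries and 30.6 and 35.4 CPM in the MPS-LM libraries (log2 fold change 2.07, SE 0.40, adjusted p = 0.00254), and its relative TFAP2C had 8.05 and 15.6 against 2.33 and 1.76 CPM (log2 fold change 2.53, SE 0.33, adjusted p = 3.83e-05). ISL1, a LIM homeobox gene of amnion and of cardiac progenitors, had 75.1 and 94.8 CPM in the PPS-LM libraries and 10.8 and 27.5 CPM in the MPS-LM libraries (log2 fold change 2.11, SE 0.59, adjusted p = 0.0346). VTCN1, an immune checkpoint ligand of amnion, was scarce, with 5.77 and 9.74 CPM in the PPS-LM libraries and 0.233 and 0 CPM in the MPS-LM libraries (log2 fold change 6.07, SE 1.22, adjusted p = 0.00516). The other members called higher were KRT7, HEY1 (a Notch target with 162 and 122 against 9.84 and 21.7 CPM), WNT6 (14.2 and 22.3 against 2.27 and 2.28 CPM) and DLX5. GATA3, a zinc finger factor of amnion and trophoblast, had 107 and 136 CPM in the PPS-LM libraries and 36.2 and 63.1 CPM in the MPS-LM libraries, with no overlap but a log2 difference of 1.26 (SE 0.37, adjusted p = 0.0505), just short of the threshold. GATA3 was called with RLE size factors (adjusted p = 0.0497), with DESeq2 (adjusted p = 0.012) and with no filter on low counts (adjusted p = 2.04e-06). In the last setting its log2 fold change was 1.26 as before, and adjusted p fell steeply for many genes without a change in fold. Without MPS-LM replicate 2 its log2 fold change was 1.77.

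Some amnion markers were at or near the limit of detection. MUC16 had 0.158 and 0 CPM in PPS-LM and 0.116 and 0.0474 CPM in MPS-LM, and ITGB6, the member not tested, had 0.0525 and 0.765 CPM in PPS-LM and no count in MPS-LM. The summed level of the amnion list was 1762 to 1829 CPM in the PPS-LM libraries, 1307 to 1443 CPM in the MPS-LM libraries and 61.2 to 74.5 CPM in the control. BAMBI, a BMP target on the list, had 863 and 723 CPM in the PPS-LM libraries and 622 and 769 CPM in the MPS-LM libraries, which overlapped and made up much of both sums. The called count was 7 without PPS-LM replicate 1, 4 without PPS-LM replicate 2, 3 without MPS-LM replicate 1 and 5 without MPS-LM replicate 2. TFAP2A was not called without PPS-LM replicate 2 or MPS-LM replicate 1 (adjusted p = 0.0627 to 0.0634). ISL1 was not called without PPS-LM replicate 1, PPS-LM replicate 2 or MPS-LM replicate 1 (adjusted p = 0.0788 to 0.33). VTCN1 was not called without MPS-LM replicate 2 (adjusted p = 0.0566). HEY1 was not called without any of the 4 libraries (adjusted p = 0.074 to 0.262). WNT6 was not called without PPS-LM replicate 2, MPS-LM replicate 1 or MPS-LM replicate 2 (adjusted p = 0.0728 to 0.1). Of 12 trophoblast markers 3 had enough counts to be tested and 0 were called by edgeR or DESeq2 (1 at an unadjusted p under 0.05). HLA-G, PSG3 and INSL4 had no count in any of the 4 libraries, and the whole list summed to at most 2.09 CPM in PPS-LM. CGA, the hormone subunit of trophoblast, had 18 counts in the 2 PPS-LM libraries and 0 in MPS-LM, which was at least 6.15-fold higher against a floor of 3 counts over the group, and was not called (adjusted p = 0.202).

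**Figure D3:**
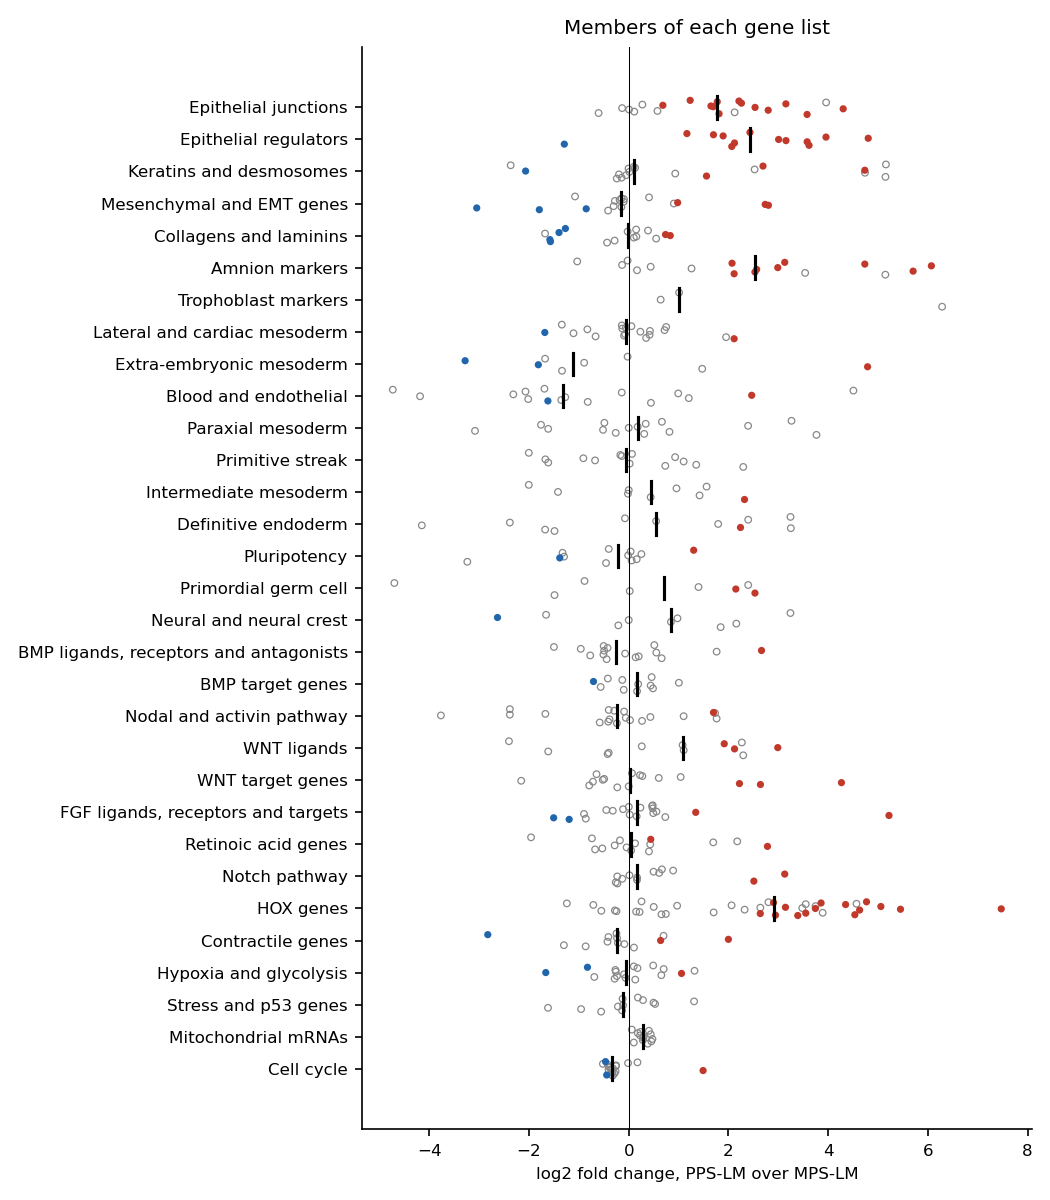
Log2 fold change of PPS-LM over MPS-LM for the members of 31 gene lists, with 1 point for each gene tested, filled red or blue where called higher or lower and open where not called, and a black bar at the list's median. Medians lie at 1.78 for epithelial junctions, 2.43 for epithelial regulators, 2.53 for amnion markers and 2.91 for HOX genes, and near 0 for lateral and cardiac mesoderm.

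Most lateral and cardiac mesoderm genes, 17 of 19, were not called different between the protocols, where 5.6% of all genes tested were called. An unadjusted p under 0.05 was found for 5 of the 19. With no filter on low counts 6 were called, and with only the 4 libraries in the fit 5 were. The study also found HAND1 in amnion-like cells of LM cultures, so its level alone does not set lateral mesoderm apart from amnion. HAND1, a transcription factor of lateral and extra-embryonic mesoderm, had 1892 and 1826 CPM in the PPS-LM libraries and 1789.5 and 2127 CPM in the MPS-LM libraries, against 0.181 and 0 CPM in the control, and did not differ beyond the spread between the protocols (log2 fold change -0.09, SE 0.47, adjusted p = 0.982). Of 19 lateral and cardiac mesoderm genes, 1 was higher (ISL1), 1 was lower and the median log2 fold change was -0.06. The lower gene was PDGFRA, a growth factor receptor of mesoderm, with 171 and 92.3 CPM in the PPS-LM libraries and 517 and 322 CPM in the MPS-LM libraries (log2 fold change -1.68, SE 0.42, adjusted p = 0.0177). FOXF1, GATA4, GATA6 and BMP4 were not called, with log2 fold changes between -0.83 for GATA6 and 0.43 for GATA4. NKX2-5, a cardiac homeobox gene, had 9.12 and 8.65 CPM in the PPS-LM libraries and 10.8 and 33 CPM in the MPS-LM libraries, apart only by a narrow margin and not called (log2 fold change -1.34, SE 0.63, adjusted p = 0.305). With no filter on low counts NKX2-5 was called lower (adjusted p = 0.0363). The list summed to 3469 to 3741 CPM in PPS-LM, 3759 to 4039 CPM in MPS-LM and 15.7 to 18.1 CPM in the control. PDGFRA was not called without PPS-LM replicate 2 or MPS-LM replicate 1 (adjusted p = 0.179 to 0.297). Without MPS-LM replicate 2 the HAND1 difference changed sign (log2 fold change 0.082, adjusted p = 1).

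Genes of extra-embryonic mesoderm split. TBX4, a T-box gene of allantois and hindlimb (chr17:61452404-61485110), had 133 and 112 CPM in the PPS-LM libraries and 1.05 and 7.47 CPM in the MPS-LM libraries, and no other condition of the 17 had a higher level (log2 fold change 4.79, SE 0.79, adjusted p = 0.000656). LUM, the proteoglycan lumican, was instead much lower in PPS-LM, with 32.2 and 22.7 CPM in the PPS-LM libraries and 341 and 190.3 CPM in the MPS-LM libraries (log2 fold change -3.28, SE 0.59, adjusted p = 0.00287). POSTN, the matrix protein periostin, had 11.1 and 3.17 CPM in the PPS-LM libraries and 28.9 and 20.7 CPM in the MPS-LM libraries (log2 fold change -1.81, SE 0.53, adjusted p = 0.0458). In all, 1 of the 8 members was higher and 2 were lower, and the median log2 fold change was -1.12. LUM was not called without PPS-LM replicate 2 (adjusted p = 0.068) or with DESeq2 (adjusted p = 0.084). POSTN was not called without PPS-LM replicate 2, MPS-LM replicate 1 or MPS-LM replicate 2 (adjusted p = 0.0891 to 0.504) or with only the 4 libraries in the fit (adjusted p = 0.106).

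Of 16 blood and endothelial genes tested of 18, 1 was higher and 1 lower. RUNX1, a factor of haematopoietic cells, had 6.52 and 7.45 CPM in the PPS-LM libraries and 0.989 and 1.47 CPM in the MPS-LM libraries (log2 fold change 2.47, SE 0.43, adjusted p = 0.000884), and TEK, the angiopoietin receptor of endothelium, had 47.5 and 31.5 CPM in the PPS-LM libraries and 108 and 131 CPM in the MPS-LM libraries (log2 fold change -1.62, SE 0.28, adjusted p = 0.000883). The blood factor TAL1 had no count in the 4 libraries. KDR, the VEGF receptor that marks early haemangiogenic mesoderm, had 288 and 374 CPM in the PPS-LM libraries and 597 and 1064 CPM in the MPS-LM libraries, apart but not called (log2 fold change -1.35, SE 0.44, adjusted p = 0.0793). The median of the list was -1.31, or -0.89 with the 3 members that had no count in one of the protocols set to their bound.

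Few markers of other fates were called. The primitive streak list still summed to 255 to 275 CPM in PPS-LM, 74.5 to 161 CPM in MPS-LM and 18.5 to 22.2 CPM in the control. These sums were not tested. Of 15 paraxial mesoderm genes and 14 primitive streak genes 0 were called by edgeR (1 and 3 at an unadjusted p under 0.05), and 1 of each by DESeq2. TBX6, the paraxial mesoderm factor, had 2.95 and 2.9 CPM in the PPS-LM libraries and 3.57 and 1.66 CPM in the MPS-LM libraries, against 183 and 195 CPM in PPS-PM, and TBXT, the streak factor brachyury, had 0.525 and 1.2 CPM in the PPS-LM libraries and 0.291 and 0.569 CPM in the MPS-LM libraries, against 1041 and 1125 CPM in the PPS cells at 24 h. The TBX6 difference changed sign without MPS-LM replicate 2 (log2 fold change -0.25, adjusted p = 0.903). TBX18, also of the paraxial list, was the nearest to a call, with 0.893 and 0.328 CPM in the PPS-LM libraries and 7.84 and 2.61 CPM in the MPS-LM libraries (log2 fold change -3.08, SE 0.92, adjusted p = 0.0528). TBX18 was called lower with DESeq2 (adjusted p = 0.00361) and with no filter on low counts (adjusted p = 0.0187). EVX1, a homeobox gene of the posterior streak, had 126 and 122 CPM in the PPS-LM libraries and 22.5 and 71.7 CPM in the MPS-LM libraries and WNT5B had 112 and 136 CPM in the PPS-LM libraries and 37.2 and 75.8 CPM in the MPS-LM libraries, both apart but neither called. With no filter on low counts both were called higher (adjusted p = 2.13e-10 and 5.95e-07), as was WNT5B without MPS-LM replicate 2 (adjusted p = 0.0423), and 5 members of the streak list were called in all. Of 9 intermediate mesoderm genes 1 was called higher, PAX2, a kidney factor with 9.02 and 13.3 against 0.582 and 3.75 CPM. Of 11 definitive endoderm genes tested 1 was higher, the chemokine receptor gene CXCR4, with 9.21 and 10.3 against 0.237 and 3.61 CPM. The endoderm list summed to at most 18.7 CPM in PPS-LM. PAX2 was not called without PPS-LM replicate 2 or MPS-LM replicate 1 (adjusted p = 0.194 to 0.204) or with only the 4 libraries in the fit (adjusted p = 0.148). CXCR4 was not called without PPS-LM replicate 1, PPS-LM replicate 2 or MPS-LM replicate 1 (adjusted p = 0.0936 to 0.327) or with only the 4 libraries in the fit (adjusted p = 0.242).

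Among 12 pluripotency genes L1TD1, an RNA-binding protein of stem cells, was higher (65.3 and 96.5 against 34.1 and 31.1 CPM) and SFRP2, a WNT antagonist, lower (22.1 and 27.2 against 59.1 and 68 CPM). The summed level of this list was 1969 to 2063 CPM in PPS-LM, 1744 to 2129 CPM in MPS-LM and 9550.0 to 9703 CPM in the control, and the ranges of the protocols overlapped. Of 8 primordial germ cell genes tested of 9, TFAP2C and SOX15 (4.15 and 6.43 against 1.28 and 1.09 CPM) were higher. Of 9 neural and neural crest genes tested of 12, OTX2, a forebrain and anterior epiblast factor, was lower, with 0.788 and 0.492 against 6.64 and 1.66 CPM, while PAX6, SOX1 and SIX3 had no count. OTX2 was not called without PPS-LM replicate 1, PPS-LM replicate 2 or MPS-LM replicate 1 (adjusted p = 0.121 to 0.511) or with only the 4 libraries in the fit (adjusted p = 0.0989).

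HOX genes, which are read out along the body axis from the anterior to the posterior end, formed the longest of the 31 lists, and a smaller share of them was higher (40.5%) than of the epithelial regulators (92.3%), epithelial junctions (61.9%) or amnion markers (52.9%). Of 37 tested of 39, 15 were higher and 0 lower, and the median log2 fold change was 2.91, or 2.80 with the 2 members absent from MPS-LM at their bound. The clusters did not behave alike. In the HOXA cluster 7 of 11 genes were higher, HOXA3, HOXA4, HOXA5, HOXA7, HOXA9, HOXA10 and HOXA11, and its summed level was 348 to 399 CPM in PPS-LM against 30.9 to 78.2 CPM in MPS-LM. In the HOXB cluster 0 of 10 were called by edgeR or DESeq2 (1 at an unadjusted p under 0.05), the median was -0.05, and the sums were 870 to 932 CPM against 748 to 845 CPM. HOXC gave 2 higher genes of 7 tested, HOXC6 and HOXC8, and HOXD gave 6 of 9, HOXD1, HOXD3, HOXD4, HOXD8, HOXD9 and HOXD13, although HOXD sums reached only 49.7 to 55.5 CPM in PPS-LM against 1.92 to 8.12 CPM. The difference between clusters was not tested.

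HOXA10 had 81.4 and 59.4 CPM in the PPS-LM libraries and 0.749 and 4.18 CPM in the MPS-LM libraries (log2 fold change 4.77, SE 0.79, adjusted p = 0.00152), and HOXA7 had 23.1 and 31.9 CPM in the PPS-LM libraries and 0.233 and 1.86 CPM in the MPS-LM libraries (log2 fold change 4.63, SE 0.97, adjusted p = 0.00696). For these the MPS-LM replicates differed from each other several-fold, replicate 2 being the higher, and both stayed below every PPS-LM value. HOXD3 and HOXD1 had 41 and 10 counts in the PPS-LM libraries and none in MPS-LM, which was at least 14.0-fold and 3.42-fold higher against the floor of 3 counts over the group. HOXD4 had 3.34 and 4 against 0 and 0.186 CPM (log2 fold change 5.06, SE 0.80, adjusted p = 0.000912). HOXA9, HOXA10 and HOXA11 had no count in the control libraries. The count of HOX genes called was 10 without PPS-LM replicate 1, 4 without PPS-LM replicate 2, 3 without MPS-LM replicate 1 and 11 without MPS-LM replicate 2. HOXA7 was not called without MPS-LM replicate 1 (adjusted p = 0.105). HOXD3 was not called without PPS-LM replicate 2, MPS-LM replicate 1 or MPS-LM replicate 2 (adjusted p = 0.0885 to 0.103). HOXD1 was not called without any of the 4 libraries (adjusted p = 0.0741 to 0.233).

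CDX factors activate posterior HOX genes and are themselves WNT targets. CDX4 had 26.4 and 24.8 CPM in the PPS-LM libraries and 0.582 and 1.95 CPM in the MPS-LM libraries (log2 fold change 4.27, SE 0.59, adjusted p = 7.49e-05), and CDX1 had 7.26 and 8.79 against 1.63 and 1.76 CPM (log2 fold change 2.22, SE 0.39, adjusted p = 0.00121). CDX2, the most abundant of them, had 78.4 and 73.7 CPM in the PPS-LM libraries and 29 and 43.5 CPM in the MPS-LM libraries, apart but not called (log2 fold change 1.04, SE 0.41, adjusted p = 0.186). With only the 4 libraries in the fit, CDX2 was called (adjusted p = 0.0418), as it was with no filter on low counts (adjusted p = 4.25e-06). RNF43, a feedback inhibitor induced by WNT, had 45.8 and 74 CPM in the PPS-LM libraries and 7.43 and 11.4 CPM in the MPS-LM libraries (log2 fold change 2.64, SE 0.45, adjusted p = 0.000792). These were the 3 higher genes, CDX4, RNF43 and CDX1, of 16 WNT targets, with 0 lower and a median of 0.03. Of 12 WNT ligand genes tested of 15, 3 were higher: WNT5A, a non-canonical ligand, with 706 and 732 CPM in the PPS-LM libraries and 158 and 169 CPM in the MPS-LM libraries (log2 fold change 2.12, SE 0.27, adjusted p = 3.26e-05), WNT6 (log2 fold change 2.99, SE 0.66, adjusted p = 0.00802), and the scarce streak ligand WNT3A with 1.85 and 0.984 against 0.291 and 0.427 CPM. WNT3A was not called without PPS-LM replicate 1, MPS-LM replicate 1 or MPS-LM replicate 2 (adjusted p = 0.116 to 0.34) or with only the 4 libraries in the fit (adjusted p = 0.18).

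In the BMP and Nodal pathways few genes differed. Among BMP ligands, receptors and antagonists, 1 of 16 was higher, the ligand gene GDF6, with 57.2 and 49.7 CPM in the PPS-LM libraries and 4.31 and 12.1 CPM in the MPS-LM libraries (log2 fold change 2.66, SE 0.75, adjusted p = 0.0378). Of 11 BMP targets 1 was lower, the inhibitory SMAD6, with 229.7 and 291 CPM in the PPS-LM libraries and 394 and 454 CPM in the MPS-LM libraries (log2 fold change -0.72, SE 0.21, adjusted p = 0.0414). Of 19 Nodal and activin pathway genes 1 was higher, SMAD3, the effector of the pathway, with 61.1 and 73.5 CPM in the PPS-LM libraries and 22.9 and 18.7 CPM in the MPS-LM libraries (log2 fold change 1.68, SE 0.18, adjusted p = 4.58e-06). Each of these counts is 1 gene, near the share of all genes. Of 19 FGF ligands, receptors and targets, FGF9 and FGF2 were higher and FGF10 and FGFR2 lower. FGF9 had 19.3 and 16.3 CPM in the PPS-LM libraries and 0.291 and 0.617 CPM in the MPS-LM libraries, FGF2 had 82.2 and 109 against 30.3 and 43.8 CPM, and FGF10, a ligand of limb and heart mesoderm, had 34.4 and 21.7 CPM in the PPS-LM libraries and 94.9 and 63.4 CPM in the MPS-LM libraries. FGFR2, a receptor for FGF10, had 162 and 131 against 439 and 230.5 CPM. GDF6 was not called without any of the 4 libraries (adjusted p = 0.0534 to 0.329). SMAD6 was not called without any of the 4 libraries (adjusted p = 0.0663 to 0.352) or with only the 4 libraries in the fit (adjusted p = 0.0836). FGF2 was not called without PPS-LM replicate 2 or MPS-LM replicate 1 (adjusted p = 0.0971 to 0.117). FGF10 was not called without PPS-LM replicate 2 or MPS-LM replicate 1 (adjusted p = 0.209 to 0.315). FGFR2 was not called without PPS-LM replicate 1, PPS-LM replicate 2 or MPS-LM replicate 1 (adjusted p = 0.101 to 0.424) or with only the 4 libraries in the fit (adjusted p = 0.0602).

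Of 15 retinoic acid genes ALDH1A2, the enzyme that makes retinoic acid in mesoderm, was higher, with 18 and 16.9 CPM in the PPS-LM libraries and 2.98 and 2.09 CPM in the MPS-LM libraries (log2 fold change 2.78, SE 0.51, adjusted p = 0.0015), as was RARG, a receptor, by a log2 fold change of only 0.44 (adjusted p = 0.046). Of 13 Notch genes tested of 16, HEY1 and the ligand gene JAG1 were higher, JAG1 with 100.3 and 142 CPM in the PPS-LM libraries and 19.6 and 22.4 CPM in the MPS-LM libraries (log2 fold change 2.51, SE 0.17, adjusted p = 5.84e-09). Of 13 contractile genes ACTA1 and TPM1 were higher and MYL4, an atrial and embryonic myosin light chain, was lower, with 5.73 and 4.93 CPM in the PPS-LM libraries and 46.9 and 28.5 CPM in the MPS-LM libraries (log2 fold change -2.83, SE 0.52, adjusted p = 0.00176). Of 17 hypoxia and glycolysis genes the glucose transporter gene SLC2A1 was higher and EGLN3 and PFKFB3 lower, EGLN3, an oxygen sensor, by -1.66 (SE 0.32, adjusted p = 0.002). RARG was not called without any of the 4 libraries (adjusted p = 0.118 to 0.29), with no filter on low counts (adjusted p = 0.317) or with only the 4 libraries in the fit (adjusted p = 0.127). ACTA1 was not called without PPS-LM replicate 2, MPS-LM replicate 1 or MPS-LM replicate 2 (adjusted p = 0.0708 to 0.129). TPM1 was not called without PPS-LM replicate 2 or MPS-LM replicate 2 (adjusted p = 0.343 to 0.44) or with only the 4 libraries in the fit (adjusted p = 0.136). SLC2A1 was not called without PPS-LM replicate 1, PPS-LM replicate 2 or MPS-LM replicate 1 (adjusted p = 0.155 to 0.466) or with only the 4 libraries in the fit (adjusted p = 0.107). EGLN3 was not called without PPS-LM replicate 2 (adjusted p = 0.0517). PFKFB3 was not called without PPS-LM replicate 2 (adjusted p = 0.11).

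The quality-related lists of stress genes and mitochondrial mRNAs gave little. Of 12 stress and p53 genes tested and 13 mitochondrial mRNAs 0 were called by edgeR and 0 by DESeq2 (2 and 0 at an unadjusted p under 0.05). MDM2 and ATF3 had 117 and 110.2 against 128 and 116 CPM and 118 and 86.6 against 59.4 and 79.8 CPM. MT-CO1 and MT-ND4 had log2 fold changes of 0.29 and 0.23, which became -0.085 and -0.30 without PPS-LM replicate 2, the library with the most mitochondrial mRNA. Of 20 cell cycle genes CDKN1C, a cyclin kinase inhibitor, was higher (80.6 and 68.2 against 30.6 and 22 CPM), and AURKB and MCM6, of mitosis and replication, were lower by log2 fold changes of -0.47 and -0.44. An unadjusted p under 0.05 was found for 10 of the 20, against 2788 of 17895 genes tested, and the list's median was -0.33. The list summed to 3144 to 3517 CPM in PPS-LM and 4020 to 4121 CPM in MPS-LM, and these sums were not tested. CDKN1C was not called without any of the 4 libraries (adjusted p = 0.0998 to 0.228). AURKB was not called without PPS-LM replicate 2, MPS-LM replicate 1 or MPS-LM replicate 2 (adjusted p = 0.121 to 0.454), with no filter on low counts (adjusted p = 0.171) or with only the 4 libraries in the fit (adjusted p = 0.126). MCM6 was not called without any of the 4 libraries (adjusted p = 0.0677 to 0.283), with no filter on low counts (adjusted p = 0.207) or with only the 4 libraries in the fit (adjusted p = 0.125).

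Over all genes, whether in the lists or not, the 15 largest rises among called genes over 10 CPM ran from 4.55 to 6.69 on the log2 scale. IGFBP3, which binds insulin-like growth factors (chr7:45912245-45921874), was the most abundant, with 709 and 697 CPM in the PPS-LM libraries and 27.2 and 26.3 CPM in the MPS-LM libraries, the highest level of the 17 conditions (log2 fold change 4.70, SE 0.37, adjusted p = 6.91e-08). CXCL12, a chemokine that guides migrating cells (chr10:44370165-44386493), had 158 and 259 CPM in the PPS-LM libraries and 5.52 and 7.09 CPM in the MPS-LM libraries (log2 fold change 5.03, SE 0.31, adjusted p = 1.89e-09). GATM, an enzyme of creatine synthesis, had 109 and 96.4 CPM in the PPS-LM libraries and 0.756 and 3.45 CPM in the MPS-LM libraries (log2 fold change 5.53, SE 0.50, adjusted p = 3.31e-07). For all of these the lowest PPS-LM value stood far above the highest MPS-LM value.

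The rest of the rises were GABRP, FGF9, GRHL1, TBX4, HOXA10 and HOXA7, given above, and 6 others. FBXL21P had 12.9 and 36.5 CPM in the PPS-LM libraries and 0.0582 and 0.38 CPM in the MPS-LM libraries, a fold change with few MPS-LM counts behind it, and is a pseudogene whose reads may be shared with related genes. NTRK2, the receptor of brain-derived neurotrophic factor, had 23.9 and 12.6 CPM in the PPS-LM libraries and 0.0582 and 0.332 CPM in the MPS-LM libraries. ADGRG1, an adhesion receptor, had 17.1 and 33.5 CPM in the PPS-LM libraries and 0.465 and 0.664 CPM in the MPS-LM libraries, and GFRA1, a receptor of glial-derived neurotrophic factor, had 25.6 and 21.9 CPM in the PPS-LM libraries and 0.174 and 1.42 CPM in the MPS-LM libraries. MMP13, a collagenase, had 20 and 15.9 CPM in the PPS-LM libraries and 0.407 and 0.477 CPM in the MPS-LM libraries and was at most 0.198 CPM in the 24 h, PM and control libraries compared here. AC118754.1, a gene with no other symbol, had 33.3 and 51.1 CPM in the PPS-LM libraries and 2.27 and 1.33 CPM in the MPS-LM libraries. MMP13 was not called without any of the 4 libraries (adjusted p = 0.105 to 0.17) or with DESeq2 (adjusted p = 0.899).

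The 15 largest falls ran from -6.42 to -3.03. MAB21L2, a gene of eye and body wall development, had 0.263 and 0.219 CPM in the PPS-LM libraries and 34.1 and 8.49 CPM in the MPS-LM libraries (log2 fold change -6.42, SE 1.20, adjusted p = 0.00397), and the MPS-LM libraries themselves differed several-fold. RGS13, a regulator of G protein signalling, had 17.3 and 11.1 CPM in the PPS-LM libraries and 279 and 128 CPM in the MPS-LM libraries and no count in the 24 h, PM or control libraries compared here. SLC40A1, the iron exporter ferroportin, had 10.6 and 7.05 CPM in the PPS-LM libraries and 144 and 99.2 CPM in the MPS-LM libraries (log2 fold change -3.80, SE 0.67, adjusted p = 0.0012). ANO1, a chloride channel, had 1.37 and 1.31 CPM in the PPS-LM libraries and 33.6 and 28.1 CPM in the MPS-LM libraries (log2 fold change -4.53, SE 0.69, adjusted p = 0.000218), and CALB2, the calcium-binding protein calretinin, had 0.263 and 0.765 CPM in the PPS-LM libraries and 13.5 and 9.79 CPM in the MPS-LM libraries. For each of these genes PPS-LM also lay below both APS-LM libraries, for example 329 and 397 CPM for SLC40A1 and 18.1 and 42.9 CPM for CALB2.

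Other falls concerned secreted and signalling proteins. CEBPD, a transcription factor of inflammation and differentiation, had 1.91 and 3.12 CPM in the PPS-LM libraries and 23.9 and 21.9 CPM in the MPS-LM libraries (log2 fold change -3.20, SE 0.56, adjusted p = 0.000928). FGF3 had 3.66 and 2.24 CPM in the PPS-LM libraries and 36 and 12.5 CPM in the MPS-LM libraries and MASP1, a complement protease, had 11 and 7.91 CPM in the PPS-LM libraries and 130.4 and 44.6 CPM in the MPS-LM libraries. TRABD2B, an inhibitor of WNT proteins also called TIKI2, had 0.893 and 0.875 CPM in the PPS-LM libraries and 8.62 and 13.6 CPM in the MPS-LM libraries (log2 fold change -3.67, SE 0.33, adjusted p = 3.55e-07), the lowest level of the 17 conditions. IGSF10, TSLP (a cytokine), SYT10 (a synaptotagmin) and CD300E (a myeloid receptor) fell from means of at most 14.1 CPM, and LUM and LOX are given above. MAB21L2 was not called without PPS-LM replicate 2 (adjusted p = 0.0777). RGS13 was not called with DESeq2 (adjusted p = 0.934). FGF3 was not called without PPS-LM replicate 2 or MPS-LM replicate 1 (adjusted p = 0.116 to 0.12). MASP1 was not called without PPS-LM replicate 2 or MPS-LM replicate 1 (adjusted p = 0.11 to 0.162). TSLP was not called without PPS-LM replicate 1, PPS-LM replicate 2 or MPS-LM replicate 1 (adjusted p = 0.19 to 0.28). SYT10 was not called without PPS-LM replicate 1 (adjusted p = 0.0712). CD300E was not called without PPS-LM replicate 1, PPS-LM replicate 2 or MPS-LM replicate 1 (adjusted p = 0.0783 to 0.129).

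The PPS and MPS cells at 24 h show how much of the difference preceded LM medium. At that time 1098 genes were called (6.14%), 499 higher in PPS (2.79%) and 599 lower (3.35%), a count that fell to 316 without PPS-24h replicate 2 and to 266 without MPS-24h replicate 1. Of the 690 genes higher in PPS-LM, 123 were already higher at 24 h (17.8% of the LM list and 24.6% of the 24 h list), 30 were lower and 537 were not called. Of the 312 lower genes, 79 were lower at 24 h (25.3% and 13.2%), 9 were higher and 224 were not called. An absent call at 24 h does not show that a gene was equal there. The change itself was tested as the difference in LM less that at 24 h, and 430 genes were called (2.4%), 308 with a larger PPS minus MPS difference after the LM day (1.72%) and 122 with a smaller one (0.682%). Without PPS-LM replicate 2 this count was 214 and without MPS-LM replicate 1 it was 202.

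For epithelial junctions 7 members were higher at 24 h and 0 lower, with a median of 0.75 there against 1.78 in LM, and the difference grew for 6 members and shrank for 1. CDH1 had 717 and 861 CPM in PPS and 264 and 362 CPM in MPS cells at 24 h. Over the LM day its PPS level therefore stayed in the same range while its MPS level went down several-fold, and the difference grew by 2.32 (SE 0.37, adjusted p = 0.00103). EPCAM had 246 and 227 CPM in PPS and 133 and 177 CPM in MPS cells at 24 h, and its difference grew by 2.26 (SE 0.37, adjusted p = 0.00137). ESRP1 had 142 and 127 CPM in PPS and 76.7 and 106 CPM in MPS cells at 24 h, and its difference grew by 3.09 (SE 0.39, adjusted p = 8.45e-05). Unlike CDH1, ESRP1 went down over the LM day from both, to the LM levels given above, and further from MPS than from PPS cells. CDH2 and SNAI1 were lower in PPS than in MPS cells at 24 h, by -0.56 (SE 0.15, adjusted p = 0.0251) and -1.30 (SE 0.24, adjusted p = 0.00157). In LM the direction for SNAI1 was the opposite, and its difference grew by 2.28 (SE 0.34, adjusted p = 0.000475). Of the 17 EMT genes 1 was higher and 8 lower at 24 h, against 3 and 3 in LM, and 4 differences moved upward.

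IGFBP3 changed direction, as 1 of the 30 genes called higher in PPS-LM and lower at 24 h. IGFBP3, GABRP, TBX4 and CXCL12 were named for a large rise in LM, which enters the change in difference. At 24 h IGFBP3 had 2.13 and 1.38 CPM in PPS and 8.85 and 12.6 CPM in MPS cells, a log2 difference of -2.66 (SE 0.40, adjusted p = 0.000237), before the PPS-LM excess. GABRP at 24 h had 0.79 and 0.542 against 2.35 and 3.46 CPM, and its difference grew by 7.88 (SE 0.96, adjusted p = 6.5e-05). ALDH1A2 went from 9.7 and 6.56 against 50.8 and 21.7 CPM at 24 h, lower in PPS, to higher in PPS-LM. HEY1 and TBX4 were not called at 24 h. In contrast CXCL12 was already at 135 and 119 against 6.88 and 7.53 CPM, and the change in its difference was 0.97 (SE 0.39, adjusted p = 0.26). TFAP2A was also higher at 24 h, with 37.4 and 72.5 against 4.43 and 10.5 CPM. The HOX list had 14 higher and 0 lower members at 24 h with a median of 1.97, and 0 members had a change in difference called by edgeR (9 at an unadjusted p under 0.05, 2 called by DESeq2). Nodal and activin pathway genes had 8 lower and 0 higher members at 24 h, when only the MPS cells had received activin, and 0 lower in LM.

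**Figure D4:**
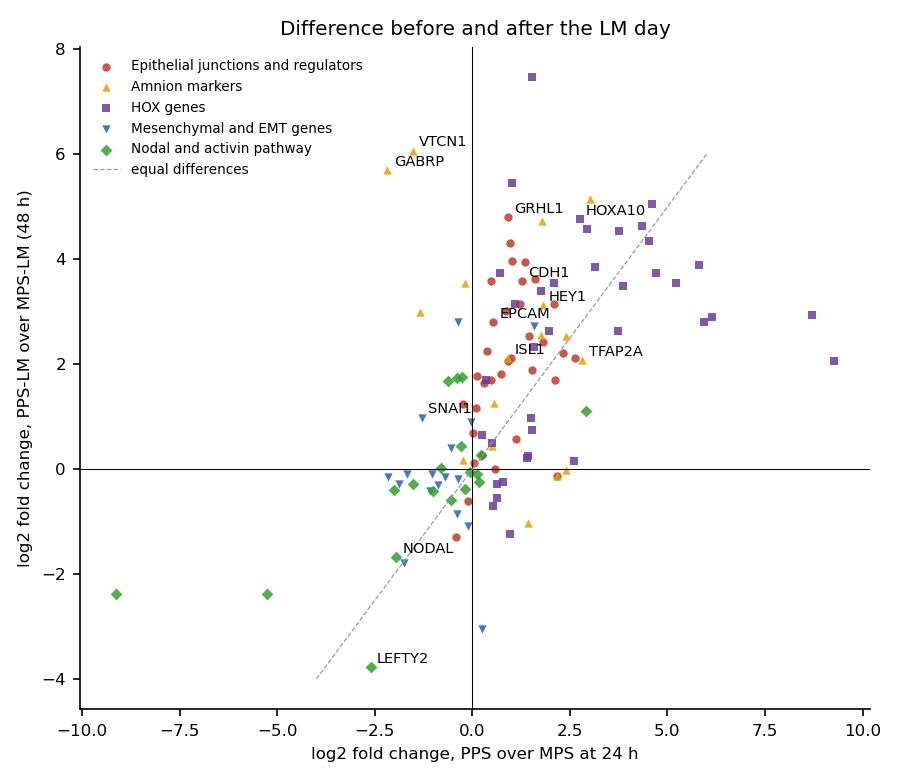
Log2 fold change of PPS over MPS at 24 h (horizontal) and of PPS-LM over MPS-LM at 48 h (vertical) for the tested members of 6 gene lists, with a dashed line where the differences would be equal. CDH1, EPCAM, GRHL1 and GABRP lie above the line, TFAP2A lies below it, and SNAI1 lies left of 0 and above 0.

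The dependence on day 2 was examined, with the CHIR99021 content of PM unsettled, by comparing the PPS minus MPS difference in LM with that in PM and in DE(b). Between LM and PM 185 genes differed (1.03%), 113 with the larger value in LM (0.631%) and 72 with the smaller (0.402%), and between LM and DE(b) 752 did (4.2%), 437 with the larger value in LM (2.44%) and 315 with the smaller (1.76%). The PM count was 73 without PPS-LM replicate 2 and 87 without MPS-LM replicate 1, and the DE(b) count was 335 without PPS-LM replicate 2 and 450 without MPS-LM replicate 2. For epithelial junctions the median difference was 0.85 in PM and 0.66 in DE(b), below that in LM, but 0 members were called between LM and PM by edgeR (8 at an unadjusted p under 0.05, 2 called by DESeq2), and 5 between LM and DE(b). CDH1 in PM had 99.5 and 110.4 CPM from PPS and 17.3 and 18.8 CPM from MPS cells, a log2 fold change of 2.54 there, and its LM less PM difference was 1.03 (SE 0.37, adjusted p = 0.276). CDH1 was thus higher from PPS in PM as well. For amnion markers the median difference was 0.25 in PM and 1.13 in DE(b), against 2.53 in LM. Between LM and PM 2 members had a larger value in LM and 1 a smaller one (9 at an unadjusted p under 0.05, 3 called by DESeq2), and the same counts held between LM and DE(b) by edgeR.

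Of the 15 largest rises in LM, 9 had a larger difference in LM than in PM and 9 a larger one than in DE(b), and 0 had a smaller one. Of the 15 largest falls, 4 differed from PM and 5 from DE(b), all in the direction of a larger fall in LM. These genes were chosen for a large difference in LM, which enters both tests. The shared direction therefore follows in part from that choice. The 5 genes with the largest positive difference between LM and PM were TBX4, GABRP, GATM, HOXA11 and ALDH1A2. GATM had 10.3 and 12.7 CPM in PPS-PM and 24.1 and 12.4 CPM in MPS-PM, where the protocols overlapped, and the difference of differences was 6.18 (SE 0.63, adjusted p = 1.54e-05). ALDH1A2 was abundant in PM, with 41.7 and 55.1 CPM from PPS and 194 and 263 CPM from MPS cells, so that it was higher from MPS in PM and higher from PPS in LM (5.02, SE 0.68, adjusted p = 0.000332). HOXA11 and TBX4 were under 1 CPM in all PM libraries of these protocols, and their values of 6.16 and 7.42 rest on few PM counts.

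The 5 largest negative ones were FGF3, MITF, CEBPD, FGF19 and IGSF10. FGF3 had 19.9 and 17.9 CPM in PPS-PM and 3.81 and 4.04 CPM in MPS-PM, the reverse of its order in LM (-5.31, SE 0.86, adjusted p = 0.00394). FGF19, an endocrine FGF, had 58.9 and 59.7 CPM in the PPS-LM libraries and 332 and 339 CPM in the MPS-LM libraries and 34.8 and 84.4 against 17.1 and 20.5 CPM in PM (-4.19, SE 0.74, adjusted p = 0.0042). Both were thus higher from MPS in LM and higher from PPS in PM. MITF, a factor of pigment cells, had 7.14 and 6.53 against 14.6 and 11.3 CPM in LM, not called, and 2.42 and 3.71 against 0.252 and 0.279 CPM in PM (-4.43, SE 0.66, adjusted p = 0.00081). CEBPD and IGSF10 differed by -4.24 and -3.64.

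**Figure D5:**
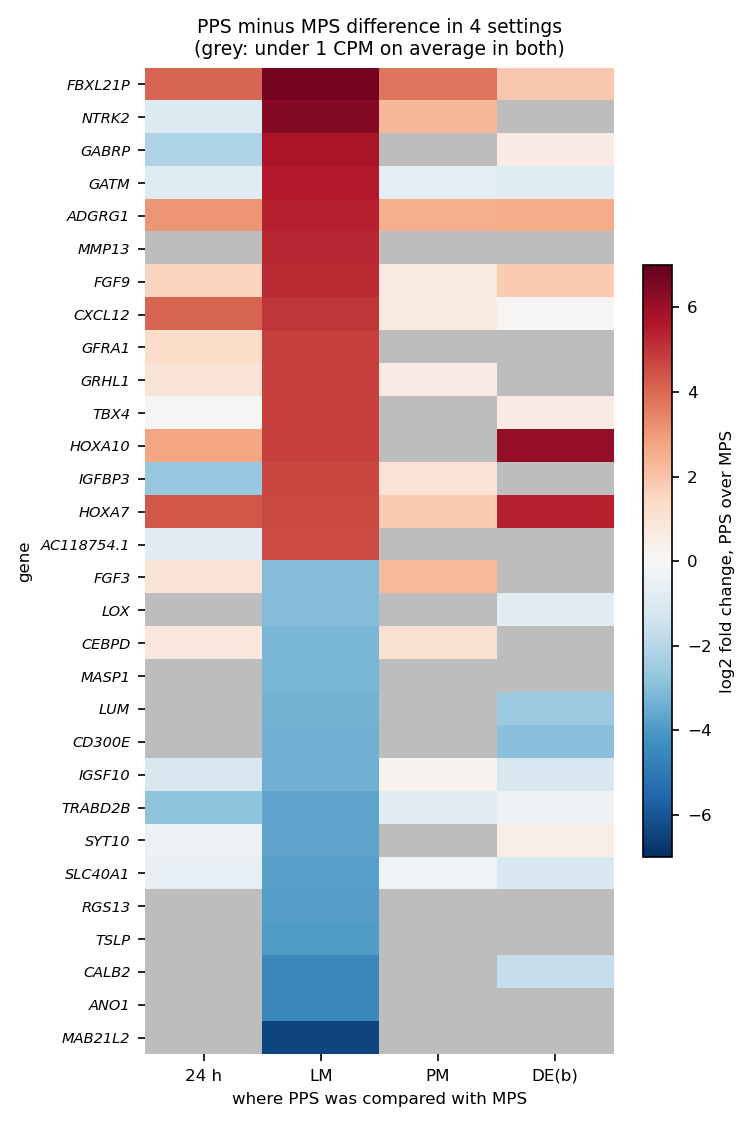
PPS minus MPS difference (log2 fold change, colour scale from -7 to 7) at 24 h and after LM, PM or DE(b) medium for the 15 largest rises and 15 largest falls of PPS-LM against MPS-LM, with grey where both protocols averaged under 1 CPM. CXCL12 and HOXA7 are red at 24 h and in LM, IGFBP3 is blue at 24 h and red in LM, and FGF3 is blue in LM and red in PM.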

How the data were processed

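Libraries were made with a stranded poly(A) kit and sequenced in pairs of reads. According to the authors' methods, Salmon 1.10.2 and R 4.4.2 (also in the submitters' processing notes) were used on GRCh38. The estimated count values deposited by the authors are totals of the transcripts of each gene and were not normalized. 0 columns were unmatched to a sample.

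Estimated counts were rounded and analysed with edgeR 4.0.16 (R 4.3.3), using TMM factors, filterByExpr by condition (17895 of 37951 identifiers kept), 1 mean per condition over 34 libraries (17 residual degrees of freedom, common dispersion 0.0611) and quasi-likelihood tests, whose p-values were adjusted (Benjamini-Hochberg) over all genes tested. The steps were tested on simulated data. Interactions are differences of 2 contrasts in the same model. Alternatives were RLE, no filter, a replicate block, only the libraries compared, a fold of at least 2 (glmTreat), DESeq2 1.42.0 and each library left out.

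Named are the 15 largest rises and falls among called genes over 10 CPM whose libraries did not overlap, the study's markers, up to 4 called members of each of 31 lists (or the 2 most abundant where none was called), and 5 interaction genes per direction with PM. Other genes named were chosen after their values were seen. The members and lists were chosen with earlier results of these data known. Positions are from GENCODE v44, promoters from RefSeq (GRCh38.p14). With 2 replicates, depth and their number limit what could be detected.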

Additional observations from a re-analysis of the deposited data

Results flagged for a closer look

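Among the 15 largest rises and 15 largest falls, the PPS minus MPS difference itself differed between LM and PM medium for 13 genes. This was the interaction test of edgeR (adjusted p under 0.05), which called 185 over all genes. ALDH1A2, HOXA11, FGF19 and MITF, given above, were called in it too and are not among the 13. The rises and falls were chosen for a large difference in LM, which enters the test, so the direction follows in part from that choice. The larger values in LM were 7.42 for TBX4, 6.49 for GABRP, 6.18 for GATM, 4.95 for HOXA10, 4.68 for AC118754.1, 4.54 for FGF9, 4.36 for CXCL12, 4.25 for GRHL1 and 3.71 for IGFBP3, all on the log2 scale. The smaller values in LM were -5.31 for FGF3, -4.24 for CEBPD, -3.64 for IGSF10 and -2.89 for TRABD2B. TBX4, GABRP, HOXA10 and AC118754.1 averaged under 1 CPM from both protocols in PM, as shown in grey in the plot of the difference by setting, so their PM difference rests on few counts.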

How the results depend on the processing

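With 2 replicates a difference rests on 4 libraries, while its spread was estimated over all 34. Leaving 1 out assumes that the lone sample varies like the other conditions. Of 109 genes followed, 92 were called, and the calls kept were 92 with RLE, 92 with the replicate block, 89 with no filter, 88 with DESeq2, 77 of 90 with only the libraries compared, 46 with a fold of at least 2 and 53 to 73 with a library left out. The median shift between RLE and TMM was 0.01 on the log2 scale. Genes called in PPS-LM against MPS-LM numbered 1560 with no filter (872 shared with the reported calls) and 173 with a fold of at least 2, and 376 to 678 with a library left out. At 24 h they numbered 1876 with no filter, 296 with only the libraries compared, 1686 with DESeq2 and 266 to 1437 with a library left out. For LM less 24 h the counts were 1025, 169, 726 and 202 to 471, and for LM less PM 774, 63, 409 and 73 to 205, in the same order. For LM less DE(b) they were 1434 with no filter, 1135 with DESeq2 and 335 to 608 with a library left out. More genes were tested with no filter (27023), and the other causes were not tested. In the LM comparison only DLL3 (-0.69 to 0.063 with a library left out), MT-CO1 (-0.085 to 0.58) and MT-ND4 (-0.30 to 0.61), without PPS-LM replicate 2, and HAND1 (-0.26 to 0.082) and TBX6 (-0.25 to 0.75), without MPS-LM replicate 2, changed sign, none of them called.

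Libraries with the same replicate number were deposited in the same table, and the labels name no culture or day that they share. Their deviations from the condition mean correlated at 0.219 between PPS-LM and MPS-LM, and above 0.1 in 96 of 136 pairs of conditions (lowest -0.196). With the replicate block the calls were 1305 in LM, 1717 at 24 h, 638 for LM less 24 h, 291 for LM less PM and 1086 for LM less DE(b). In LM it also brought 3 primitive streak genes, EVX1 (adjusted p = 0.0249) and WNT5B (0.018) among them, and 1 paraxial gene, TBX18 (0.0461), to a call, where 0 of these were called without it. Averaged over the other conditions, the deviations of all 17 conditions correlated above 0 with those of the same number, a hint from the data and not from the design.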
